A study of Mus musculus with 16 samples.

Results

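Beclin1 knockdown in day 4 embryoid bodies is covered by 4 of the study's 16 RNA sequencing libraries, 2 replicates with the hairpin shNT, taken here as the control, and 2 replicates with the hairpin shBeclin1. Every expressed gene was compared between them. The filter on low counts, applied over all 16 libraries, kept 19141 of the 54052 entries of the count table, and 349 of the kept entries had no count in any of the 4 day 4 libraries. Both groups come from ES-E14TG2a, an established mouse line of embryonic stem cells, with the genotype tag WT, grown to day 4 as embryoid bodies. Their treatment tags read EB differentiation+shNT and EB differentiation+shBeclin1. The batch tag repeats the treatment, so batch and hairpin cannot be told apart. The 2 hairpins at day 0, in undifferentiated cells, and at day 10, in the culture labelled CM, served as further reference groups of 2 libraries each. The study set out to find how less Beclin1 comes to raise the yield of cardiomyocytes. The labels do not say whether replicates are separate cultures, so p-values measure the spread between these libraries, which may be technical. They also do not say whether the cells were a clone or a pool, which part of the transcript the hairpin targets, or whether a rescue was made, so effects of Becn1 loss and other effects of the hairpin cannot be told apart.

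Beclin1 is the scaffold of a lipid kinase complex, built around Vps34, that starts autophagosomes and also acts in endosome sorting. Embryoid bodies are aggregates of stem cells that leave naive pluripotency, pass through a state like that of the epiblast and then express genes of the primitive streak. In the streak of the embryo, epithelial cells give up their E-cadherin junctions, become mesenchymal and move out as mesoderm or endoderm, under Wnt, Nodal, BMP and FGF signals.

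The shNT libraries of day 4 held 15584415 and 16021923 counts and the shBeclin1 libraries 16798092 and 20340048, with 22636 to 23688 genes detected per library. The share of counts on mitochondrial messenger RNA was 3.26 and 3.23% in the shNT libraries and 3.11 and 3.21% in the shBeclin1 libraries. The share on ribosomal RNA was 0.519 and 0.491% against 0.56 and 0.577%, and that on ribosomal protein genes was 6.19 and 6.29% against 6.68 and 6.59%. None of these 3 shares overlapped between the hairpins, and their part in the results was not tested. Replicates differed by a median of 0.11 (shNT) and 0.123 (shBeclin1) on the log2 scale, and libraries of different hairpins by 0.236 to 0.249. The chi-square per degree of freedom was 1.43 and 2.22 between replicates, so no library was a copy of another, and 17.91 to 18.69 between hairpins.

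Becn1, the targeted gene, was lower in both shBeclin1 libraries, at 73 and 72.2 CPM in the shNT libraries and at 33.7 and 38.4 CPM in the shBeclin1 libraries, which left 49.8% of the control level (log2 fold -1.01 ± 0.077, adjusted p = 6.23e-13). Levels throughout are counts per 1000000 counts of the library (CPM), adjusted by TMM, a factor per library that evens out composition, with n = 2 libraries per hairpin. Values are always given as shNT replicates 1 and 2 and then shBeclin1 replicates 1 and 2, and ± marks the standard error of a log2 fold from edgeR's quasi-likelihood test with Benjamini-Hochberg adjustment over all 19141 entries. The gene occupies chromosome 11 at 101285952 to 101302286 of GRCm38, on the minus strand with 10 exons, and exons of Cntd1 overlap 43.9% of its exon length. Its core partners were not called. Pik3c3, the gene of Vps34, stood at 56.6 and 57.7 against 55.1 and 60.2 CPM, and Atg14, which directs the complex to autophagosomes, stood at 27.7 and 29.3 against 28.6 and 27.2 CPM. Of 15 genes of the complex and its regulators, 1, Becn1 itself, fell and 2, Vmp1 and Sh3glb1, rose, the rises becoming 1 without shNT replicate 1 or shBeclin1 replicate 2 and 0 without shNT replicate 2.

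In all, 3975 genes (20.8%) passed an adjusted p of 0.05, of which 2047 (10.7%) rose and 1928 (10.1%) fell in shBeclin1 embryoid bodies. Libraries of the hairpins did not overlap in 3974 of them, which follows largely from the calls, as these select genes that differ between hairpins. Genes that were not called can also lack overlap, as Dnmt1 does below, so a lack of overlap describes the values and is no added support. Changes of at least 2-fold numbered 493 rises (2.58%) and 470 falls (2.46%). The largest changes were mostly rises, with 182 rises against 73 falls of at least 4-fold. Leaving out 1 library lowered the count of 3975 to 2516 or 2514 in the absence of replicate 1 or replicate 2 of shNT, and to 2611 or 2644 in the absence of replicate 1 or replicate 2 of shBeclin1. Scaling by total counts shifted the median log2 fold of all genes by -0.04 and made rises 38.1% of 3772 calls, in place of 51.5%. The gene lists below are read against the shares above and against the median log2 fold of all genes, 0.02. Exons of neighbouring genes cover at least 10% of the exon length of Becn1 itself and of Dll1, Rspo3, Lef1, Fgf15, Apela, Cdkn1c, Fbn1, Usp29, Mest, Snrpn, Sqstm1, Pou5f1, Lsr and Hopx. The sources used here do not give the strand setting of the read counting, so the counts of these genes are uncertain.

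**Figure D1:**
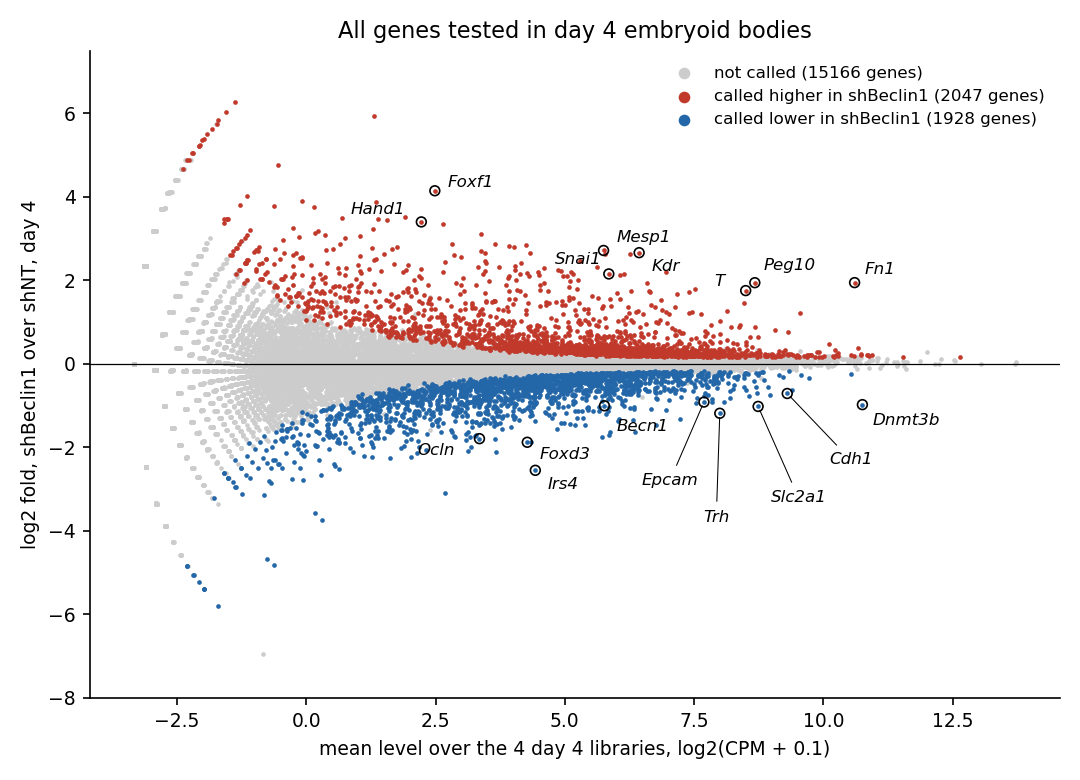
Mean level of each of the 19141 genes over the 4 day 4 libraries (horizontal axis, log2 CPM) against the log2 fold of shBeclin1 over shNT (vertical axis). Called genes are coloured, 2047 higher and 1928 lower, and circled genes are those described in the text; the largest rises reach further from 0 than the largest falls.

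Epithelial junction genes fell and mesenchymal genes rose in shBeclin1 embryoid bodies. Of 26 genes for adherens and tight junctions, desmosomes, epithelial keratins and epithelial splicing, 21 fell and 2 rose, at a median log2 fold of -0.74. Cdh1, the gene of E-cadherin, stood at 778 and 788 CPM in the shNT libraries and at 476 and 481 CPM in the shBeclin1 libraries and fell 1.64-fold (log2 fold -0.71 ± 0.087, adjusted p = 2.03e-06). Epcam, which encodes an epithelial adhesion protein, stood at 273 and 267 against 140.1 and 146 CPM and fell 1.89-fold (log2 fold -0.92 ± 0.083, adjusted p = 2.31e-09). Both shBeclin1 libraries lay below both shNT libraries for each. Among tight junction genes, Ocln, the gene of occludin, stood at 16.2 and 15.1 against 4.65 and 4.4 CPM and fell 3.46-fold (log2 fold -1.79 ± 0.17, adjusted p = 2.29e-10). Cldn6, a claudin of embryonic epithelia, stood at 88.6 and 99.3 against 36.2 and 38.9 CPM and fell 2.5-fold (log2 fold -1.32 ± 0.099, adjusted p = 3.21e-13), and Cldn7 fell 2.28-fold, at 45.3 and 45.2 against 20.1 and 19.6 CPM. The epithelial keratin gene Krt18 stood at 79.1 and 75.9 against 42.5 and 43.1 CPM and fell 1.81-fold, again without overlap. Desmoplakin and the partner keratin of Krt18 went the other way, as Dsp stood at 97.9 and 91.5 against 176 and 169.5 CPM and rose 1.82-fold (log2 fold 0.87 ± 0.065, adjusted p = 3.15e-13), and Krt8 at 77 and 69.5 against 93.1 and 97.8 CPM and rose 1.3-fold (log2 fold 0.38 ± 0.077, adjusted p = 0.000259). Lsr, Krt19 and Cldn9 were not called. The summed level of the 26 genes was 2424 and 2412 CPM in shNT and 1674 and 1698 CPM in shBeclin1 libraries. In bulk RNA, fewer cells of a type and less RNA per cell cannot be told apart, here and in every group below.

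Of 21 genes of the epithelial to mesenchymal transition and of mesenchymal cells, 12 rose and none fell, at a median log2 fold of 0.67. Fn1, the gene of the matrix protein fibronectin, stood at 643 and 638 CPM in the shNT libraries and at 2514 and 2425 CPM in the shBeclin1 libraries and rose 3.85-fold (log2 fold 1.95 ± 0.066, adjusted p = 4.94e-23). Snai1, which encodes the Snail repressor of E-cadherin, stood at 20.2 and 22 against 99.5 and 88.7 CPM and rose 4.45-fold (log2 fold 2.15 ± 0.10, adjusted p = 1.16e-18). Twist1, a transcription factor of mesenchyme, stood at 6.69 and 7.13 against 34.5 and 28.7 CPM and rose 4.55-fold (log2 fold 2.19 ± 0.12, adjusted p = 4.1e-17). The shBeclin1 pair lay well above the shNT pair for each of the 3. Cdh2, the gene of N-cadherin, which replaces E-cadherin in migrating mesoderm, stood at 122 and 119.6 against 266 and 282 CPM and rose 2.27-fold (log2 fold 1.18 ± 0.072, adjusted p = 1.06e-15). The intermediate filament gene Vim stood at 72 and 78.7 against 150.2 and 148 CPM and rose 1.98-fold, and Itga5, a chain of the fibronectin receptor, stood at 34.5 and 35.4 against 77.8 and 72.4 CPM and rose 2.15-fold. Both Zeb repressor genes also rose, with Zeb2 at 27.6 and 25.8 against 50.6 and 53.8 CPM and Zeb1 at 3.76 and 3.84 against 9.9 and 9.85 CPM. Not every such regulator rose, as Snai2, a relative of Snai1, was low in all 4 libraries and was not called. It stood at 0.418 and 0.0673 against 0.199 and 0.278 CPM. Col3a1, a collagen gene of later connective tissue, was also low and not called, at 0.279 and 0.269 against 0.266 and 0.445 CPM. The summed level, which Fn1 dominates, was 1202 and 1199 CPM in shNT and 3672 and 3580 CPM in shBeclin1 libraries. In GRCm38, Cdh1 lies on chromosome 8 at 106603351 to 106670246, Fn1 on chromosome 1 at 71585520 to 71653200 and Snai1 on chromosome 2 at 167538195 to 167542814.

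**Figure D2:**
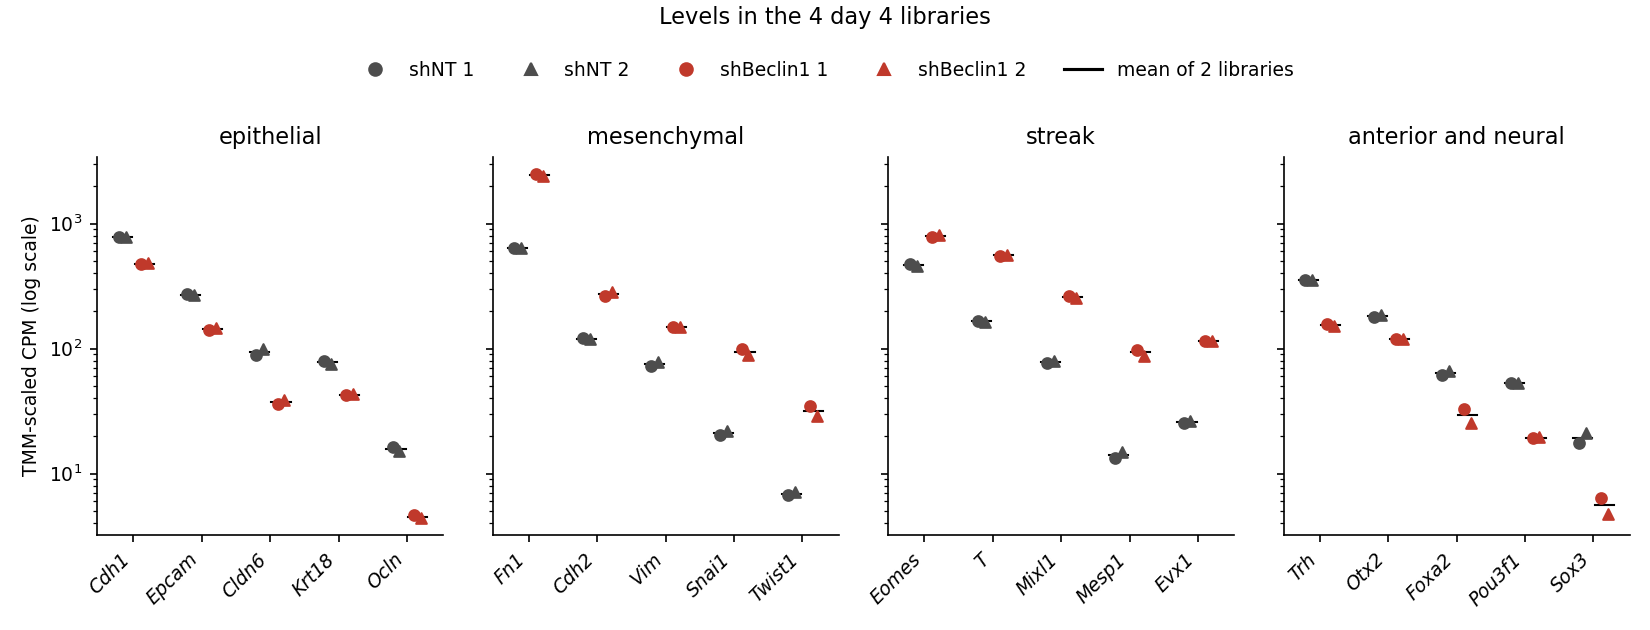
Level of 20 genes in each of the 4 day 4 libraries, in CPM on a log axis, for epithelial genes, mesenchymal genes, primitive streak genes, and genes of the anterior streak, node and neural plate. Circles are replicate 1, triangles replicate 2 and black lines the mean of 2 libraries. Replicates lie close together and the pairs of each hairpin stay apart for every gene drawn. The epithelial and anterior genes drawn are lower and the mesenchymal and streak genes drawn are higher in shBeclin1. The full lists of anterior streak and node genes and of neural plate genes went both ways.

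The effect of knockdown on adhesion genes at day 4 was compared with that at day 0. The knockdown effect at day 4 differed from that at day 0 for 2836 of all genes (14.8%), for 20 of the 26 epithelial genes and for 11 of the 21 mesenchymal genes, by a test of the difference itself. Cdh1 stood at 551 and 552 against 554 and 559 CPM at day 0, where all 4 libraries lay close together. Fn1 stood at 1640 and 1746 against 1524 and 1435 CPM at day 0, so the shNT libraries were the higher pair there and the lower pair at day 4. The median log2 fold at day 0 was 0 for the epithelial and -0.20 for the mesenchymal list.

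**Figure D3:**
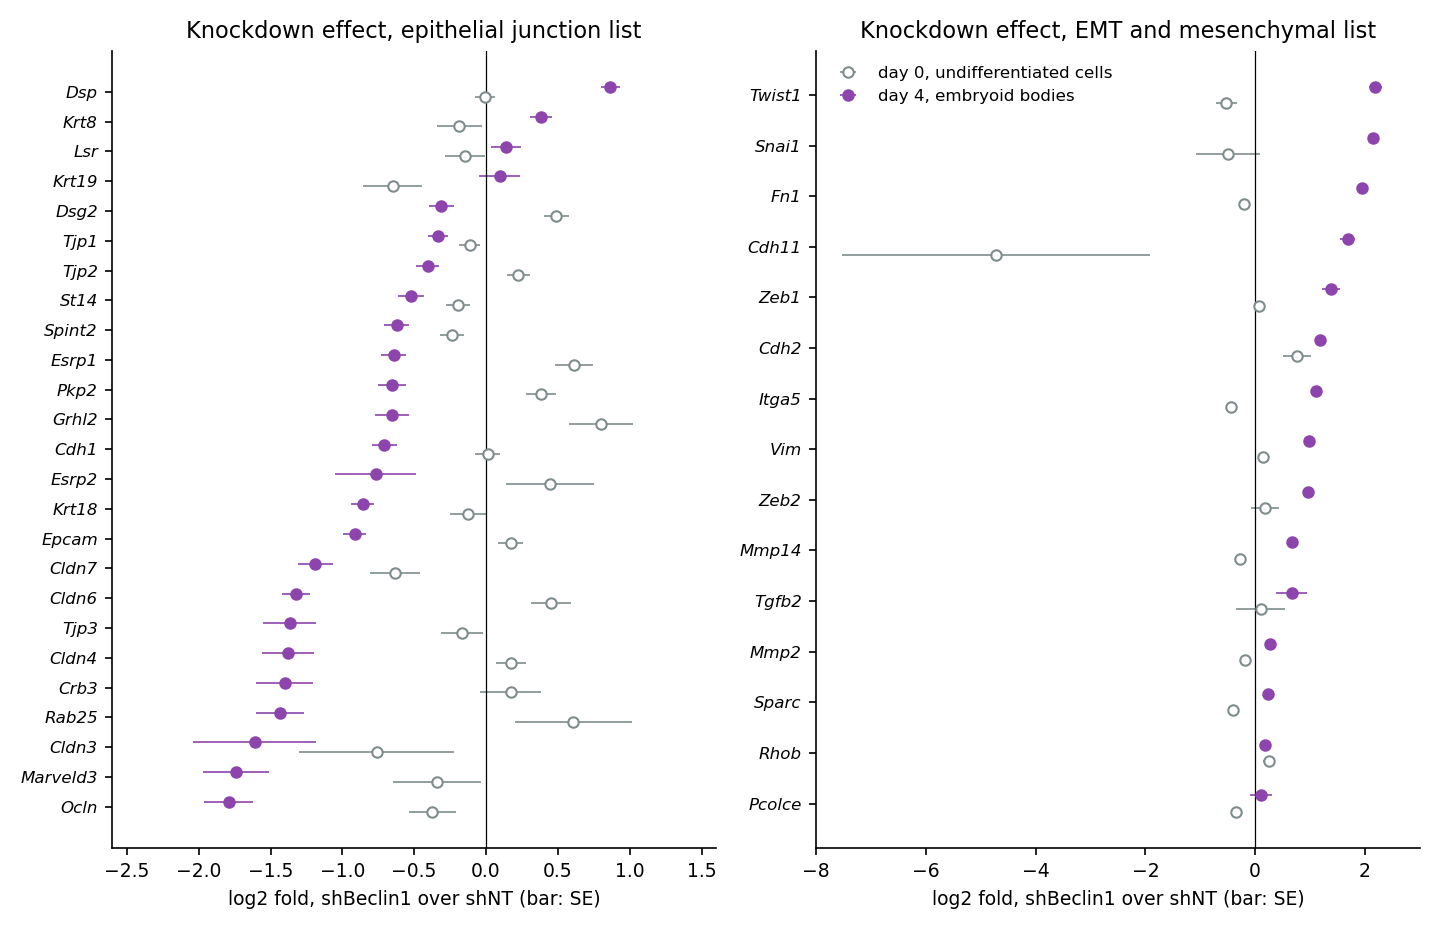
Log2 fold of shBeclin1 over shNT with its standard error, at day 0 (open grey) and day 4 (filled purple), for the members of the epithelial and mesenchymal lists with a mean of at least 1 CPM, 25 of 26 and 15 of 21. At day 0 most points lie around 0, and at day 4 most epithelial genes lie below 0 and most mesenchymal genes above.

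Snail and Zeb proteins bind the E-box with the letters CAGGTG or, read from the other strand, CACCTG. The windows from 250 bases before to 50 bases after each RefSeq start site in build GRCm38.p6 were searched for these letters on both strands. They were found in 19% of the 16487 windows of tested genes, in 13.1% of windows of genes that rose, in 27.5% of those of genes that fell and in 18.5% of those of genes not called. Of genes that fell by at least 2-fold, 34.8% of windows held the letters, against 16% for rises of that size. The epithelial list had windows for 15 of its 26 genes, and 17 of these 19 windows (89.5%) held the letters. A match describes the letters and is not evidence of binding. The windows of Epcam (chr17:87635729-87636028 on the plus strand) and Cldn6 (chr17:23679115-23679414 on the plus strand) are shown because both genes fell and each window holds 2 matches. They are from RefSeq, written 5′ to 3′ along the gene, with the matches in capitals. Counting the first transcribed base as +1, the matches begin at -187 and -19 in Epcam and at -93 and +41 in Cldn6.
Epcam: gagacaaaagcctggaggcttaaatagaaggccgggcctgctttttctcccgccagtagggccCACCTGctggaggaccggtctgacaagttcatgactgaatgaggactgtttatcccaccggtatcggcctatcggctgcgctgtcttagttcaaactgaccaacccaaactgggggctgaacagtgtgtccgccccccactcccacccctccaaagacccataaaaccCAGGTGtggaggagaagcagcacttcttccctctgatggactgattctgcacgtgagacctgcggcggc
Cldn6: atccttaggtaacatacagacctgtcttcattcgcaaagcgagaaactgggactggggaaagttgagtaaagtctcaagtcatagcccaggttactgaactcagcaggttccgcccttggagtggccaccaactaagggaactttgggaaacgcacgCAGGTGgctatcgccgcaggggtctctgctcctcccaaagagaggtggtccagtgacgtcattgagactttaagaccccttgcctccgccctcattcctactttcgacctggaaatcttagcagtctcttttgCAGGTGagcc

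Primitive streak genes rose, while the streak signals Nodal and Fgf8 were not called. Of 16 streak genes 11 rose and none fell, at a median log2 fold of 1.31, and their summed level was 1586 and 1577 CPM in shNT and 3441 and 3443 CPM in shBeclin1 libraries. T, the gene of brachyury, stood at 166 and 164 CPM in the shNT libraries and at 557 and 558 CPM in the shBeclin1 libraries and rose 3.38-fold (log2 fold 1.76 ± 0.067, adjusted p = 1.99e-21). Mixl1, a homeobox gene of the streak, stood at 76.9 and 79.6 against 263 and 254 CPM and rose 3.31-fold (log2 fold 1.73 ± 0.086, adjusted p = 7.08e-17). Eomes, which is needed for cells to leave the streak, stood at 474 and 463 against 787 and 809.9 CPM and rose 1.71-fold (log2 fold 0.77 ± 0.059, adjusted p = 4.77e-13). Replicates were close and the hairpins stayed apart for each of these. Cyp26a1, the gene of an enzyme that degrades retinoic acid in the streak and tail, stood at 38.4 and 41.1 against 149 and 155 CPM and rose 3.82-fold. Wnt3, a ligand needed for the streak to form, stood at 30.7 and 28.4 against 73.5 and 76.5 CPM and rose 2.54-fold, and the Nodal co-receptor gene Tdgf1 stood at 387 and 389.9 against 665 and 691 CPM and rose 1.75-fold. Lhx1, a homeobox gene of the streak and its mesendoderm, stood at 167 and 162 against 397 and 402 CPM and rose 2.42-fold. The 5 members not called were Wnt3a, Fgf17, Fgf8, Nodal and Gsc. Fgf8 stood at 59.5 and 62.4 against 65.3 and 58.2 CPM, with replicates as far apart as hairpins. Nodal stood at 55.8 and 56.9 against 58.7 and 52.8 CPM (log2 fold -0.02 ± 0.098, adjusted p = 0.952) and Gsc, the gene of the organizer factor goosecoid, at 25.9 and 26 against 26.1 and 24.2 CPM, and for both the libraries of the hairpins overlapped.

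T and Sp5 are known targets of Wnt signalling in the mouse streak, where TCF and LEF proteins bind the letters CTTTG followed by a pair of letters that are each A or T. Those letters, searched on both strands of the same windows, were in 12.3% of all windows, in 11.2% of those of genes that rose, in 11.5% of those of genes that fell and in 12.6% of those of genes not called. The streak and paraxial lists together had windows for 26 of 33 genes, and 7 of these 27 windows (25.9%) held a match, while 9 of them (33.3%) held the E-box letters. By their letters, TCF and LEF matches and E-box matches cannot overlap each other. Windows of 3 genes that rose are shown with the TCF and LEF letters, or their reverse complements, in capitals: T (chr17:8434173-8434472 on the plus strand), Sp5 (chr2:70474673-70474972 on the plus strand) and Mesp1 (chr7:79793541-79793840 on the minus strand). The matches begin at -235 in T, at -222 and -104 in Sp5 and at -73 and -31 in Mesp1. Sp5, a transcription factor gene that responds to Wnt signals, itself stood at 57.2 and 53.5 against 159 and 137 CPM, and Mesp1, the gene that marks the first cardiac mesoderm, at 13.3 and 15 against 98.3 and 88 CPM, both without overlap.
T: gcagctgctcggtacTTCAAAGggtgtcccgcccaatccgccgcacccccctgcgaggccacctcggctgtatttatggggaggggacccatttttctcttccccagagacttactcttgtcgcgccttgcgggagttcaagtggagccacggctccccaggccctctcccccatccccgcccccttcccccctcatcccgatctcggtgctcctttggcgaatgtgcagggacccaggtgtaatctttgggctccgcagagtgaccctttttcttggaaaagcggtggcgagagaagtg
Sp5: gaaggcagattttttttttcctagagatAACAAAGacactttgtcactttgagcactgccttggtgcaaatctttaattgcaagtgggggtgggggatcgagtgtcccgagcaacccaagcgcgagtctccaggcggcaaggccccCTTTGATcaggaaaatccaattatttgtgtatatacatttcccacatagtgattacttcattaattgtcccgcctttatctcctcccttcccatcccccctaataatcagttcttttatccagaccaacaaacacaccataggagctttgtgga
Mesp1: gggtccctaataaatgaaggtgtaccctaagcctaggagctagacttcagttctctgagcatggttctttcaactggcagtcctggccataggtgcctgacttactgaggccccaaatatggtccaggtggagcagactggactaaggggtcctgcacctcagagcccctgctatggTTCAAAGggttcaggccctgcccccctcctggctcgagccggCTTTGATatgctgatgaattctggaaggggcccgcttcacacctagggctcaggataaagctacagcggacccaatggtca

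Many genes of the mesoderm that leaves the streak rose. In paraxial mesoderm, the source of somites, 12 of 17 genes rose, each by at least 2-fold, and none fell, at a median log2 fold of 1.80. Pcdh19, a protocadherin gene, stood at 4.11 and 5.18 against 34.1 and 32.8 CPM and rose 7.17-fold (log2 fold 2.84 ± 0.16, adjusted p = 1.54e-16). The Notch ligand gene Dll1 stood at 24.5 and 25.2 against 111 and 106 CPM and rose 4.36-fold (log2 fold 2.13 ± 0.097, adjusted p = 3.17e-19), and Lfng, whose product modifies Notch, at 5.02 and 3.77 against 24.2 and 19.5 CPM and rose 4.96-fold. Rspo3, which encodes an enhancer of Wnt signals, stood at 21.3 and 21.5 against 48.5 and 55.8 CPM and rose 2.44-fold. The early member Msgn1 stood at 0 and 0.135 against 5.38 and 3.95 CPM, from 0 and 2 counts in shNT, while genes of formed somites such as Tcf15 and Meox1 were not called and Uncx had no count.

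Of 20 genes of lateral plate and extraembryonic mesoderm 12 rose and none fell, at a median log2 fold of 1.46. Foxf1, a forkhead gene of lateral plate mesoderm, stood at 0.697 and 0.471 against 10.1 and 10.7 CPM and rose 17.7-fold (log2 fold 4.15 ± 0.37, adjusted p = 2.62e-10). Hand1, which acts in extraembryonic and cardiac mesoderm, stood at 0.627 and 0.942 against 8.1 and 8.63 CPM and rose 10.6-fold (log2 fold 3.40 ± 0.25, adjusted p = 2.54e-13). Tbx3, a T-box gene of both naive stem cells and mesoderm, stood at 5.85 and 5.11 against 34.2 and 35 CPM and rose 6.31-fold (log2 fold 2.66 ± 0.12, adjusted p = 1.56e-19). Each of the 3 was low in both shNT libraries and several times higher in both shBeclin1 libraries. Msx2 and Gata6 rose as well, with Msx2 at 2.23 and 1.68 against 10.7 and 10.6 CPM and Gata6 at 15.8 and 17.8 against 47.1 and 42.7 CPM. Bmp4, the ligand that patterns this mesoderm, was not called, at 6.06 and 5.79 against 5.45 and 6.9 CPM. In GRCm38, Foxf1 lies on chromosome 8 at 121084386 to 121088144 and Hand1 on chromosome 11 at 57828705 to 57832818.

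Of 20 genes of cardiac mesoderm and progenitors 13 rose, each by at least 2-fold, at a median log2 fold of 1.99, and Hopx fell, a call that was lost without any 1 of the 4 libraries. Kdr, the gene of a VEGF receptor on early cardiac and blood-forming mesoderm, stood at 24.2 and 23 against 149 and 150.3 CPM and rose 6.33-fold (log2 fold 2.66 ± 0.078, adjusted p = 5.94e-25). Pdgfra, a receptor gene of cardiac and paraxial mesoderm, stood at 44.5 and 45 against 202 and 207 CPM and rose 4.56-fold (log2 fold 2.19 ± 0.072, adjusted p = 1.84e-23). Fgf10, a ligand gene of the second heart field, stood at 10.4 and 9.76 against 47 and 48.9 CPM and rose 4.76-fold (log2 fold 2.25 ± 0.12, adjusted p = 1.18e-17). The pairs did not overlap. Genes of committed progenitors were near 0 in all 4 libraries, with Nkx2-5 at 0 and 0.135 against 0.133 and 0.0557 CPM and Tbx5 at 0.0697 and 0 against 0.0664 and 0 CPM. The summed level of the list was 138.7 and 143.4 CPM in shNT and 679 and 665 CPM in shBeclin1 libraries. None of 20 cardiomyocyte genes was called by edgeR's test, although 1 had an unadjusted p under 0.05, and DESeq2 called 2 higher. Their median log2 fold was 0.37. Their summed level was 415 and 402 CPM in shNT and 501 and 514 CPM in shBeclin1 libraries. Of these 20 genes 11 had a mean under 1 CPM, among them Tnnt2, the gene of cardiac troponin T, at 0.139 and 0.135 against 0.399 and 0.39 CPM. The tissue label heart of these libraries is thus not matched by defining markers of heart muscle at day 4.

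Of 25 genes of blood and endothelial precursors 14 rose and none fell, at a median log2 fold of 1.42. Tal1, which specifies blood precursors, stood at 3.07 and 2.42 against 18.3 and 17.4 CPM and rose 6.48-fold (log2 fold 2.70 ± 0.20, adjusted p = 1.55e-13). Gata2 stood at 1.39 and 0.807 against 10.1 and 12.2 CPM and rose 10.1-fold (log2 fold 3.34 ± 0.26, adjusted p = 8.84e-13). Lmo2, the gene of a partner of both, stood at 3.76 and 3.63 against 25.2 and 27.3 CPM and rose 7.1-fold, and Etv2, which drives endothelial fate, at 5.23 and 5.99 against 31.6 and 28.2 CPM and rose 5.31-fold. The shNT libraries were low and the shBeclin1 libraries higher for all 4. The embryonic globin genes were near 0 in all 4 libraries, with Hbb-bh1 at 0 and 0 against 0.0664 and 0.0557 CPM and Hba-x at 0 and 0 against 0 and 0.0557 CPM.

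Among genes that place cells along the trunk, 6 of 28 Hox and Cdx genes tested rose, each from a low level, none fell and 22 were not called, and 26 of the 29 in the table had a mean under 1 CPM, with 10 at 0 in all 4 libraries. Cdx2, which activates posterior Hox genes, stood at 0.348 and 0.269 against 4.38 and 4.79 CPM and rose 14.6-fold (log2 fold 3.87 ± 0.41, adjusted p = 3.16e-09). Hoxb1, among the first Hox genes of the streak, stood at 0.697 and 0.471 against 5.58 and 7.79 CPM and rose 11.4-fold (log2 fold 3.51 ± 0.36, adjusted p = 1.19e-09). The summed level of the group was 2.02 and 2.35 CPM in shNT and 15.9 and 18 CPM in shBeclin1 libraries.

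Genes of the anterior streak, node and definitive endoderm went both ways. Of 19 tested 6 rose and 5 fell. Trh, the gene of the precursor of thyrotropin releasing hormone, stood at 354 and 355 CPM in the shNT libraries and at 159 and 153 CPM in the shBeclin1 libraries and fell 2.27-fold (log2 fold -1.18 ± 0.066, adjusted p = 9.83e-17). Foxa2, which specifies node and endoderm, stood at 61.1 and 66.4 against 32.8 and 25.6 CPM and fell 2.19-fold (log2 fold -1.13 ± 0.11, adjusted p = 1.55e-09), and Chrd, the gene of the BMP antagonist chordin made by the node, stood at 17.2 and 17.5 against 7.77 and 7.9 CPM and fell 2.21-fold (log2 fold -1.15 ± 0.16, adjusted p = 8.43e-07). Otx2, a gene of the epiblast and later of the anterior embryo, stood at 181 and 185 against 120.4 and 119.8 CPM and fell 1.52-fold (log2 fold -0.61 ± 0.11, adjusted p = 0.000591). For these the shNT libraries were the higher pair. Cxcr4, a chemokine receptor gene of endoderm and mesoderm, stood at 6.76 and 5.92 against 29.9 and 26.8 CPM and rose 4.46-fold, and Dkk1, a Wnt antagonist gene, stood at 7.88 and 7.07 against 18.1 and 19.1 CPM and rose 2.49-fold. The genes that rose include ones that mesoderm also expresses, such as Gata6 and Lhx1.

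Early neural plate genes also split, with 5 rises and 4 falls of 24, of which 13 had a mean under 1 CPM. The rises include Cdh2 and Zeb2, given above with the mesenchymal genes. The summed level of the 24 genes was 1044 and 1044 CPM in shNT and 1110 and 1137 CPM in shBeclin1 libraries. Pou3f1, which promotes neural fate in the epiblast, stood at 53.5 and 53.2 against 19.1 and 19.5 CPM and fell 2.76-fold (log2 fold -1.46 ± 0.13, adjusted p = 1.56e-11). Sox3 stood at 17.5 and 21.2 against 6.38 and 4.79 CPM and fell 3.49-fold (log2 fold -1.80 ± 0.20, adjusted p = 9.02e-09), and Sox2, shared by pluripotent and neural cells, at 68.1 and 64.8 against 41.2 and 44.8 CPM and fell 1.54-fold (log2 fold -0.63 ± 0.078, adjusted p = 6.89e-08). All 3 were lower in both shBeclin1 libraries. Of 16 proneural and neuronal genes 7 fell and none rose, at a median log2 fold of -0.88. Elavl3, a neuronal RNA-binding protein gene, stood at 13.7 and 13.9 against 4.05 and 4.06 CPM and fell 3.4-fold, and Tubb3, the gene of neuronal tubulin, stood at 13.6 and 14.3 against 4.58 and 5.96 CPM and fell 2.62-fold. Their summed level was 123.5 and 127 CPM in shNT and 77.1 and 83.1 CPM in shBeclin1 libraries.

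Genes of formative and primed epiblast, the state before the streak, fell in 13 of 19 and rose in 4, at a median log2 fold of -0.58, against 0.36 at day 0. The 4 rises became 3 without shNT replicate 1 or shBeclin1 replicate 2, and 2 without shNT replicate 2 or shBeclin1 replicate 1. Foxd3, a transcription factor gene of the epiblast, stood at 31.4 and 29.1 against 8.57 and 7.9 CPM and fell 3.68-fold (log2 fold -1.88 ± 0.16, adjusted p = 6.58e-12). Fgf5, the classic epiblast marker, stood at 217 and 219.8 against 148 and 151 CPM and fell 1.46-fold (log2 fold -0.54 ± 0.084, adjusted p = 9.63e-06). Both were lower in both shBeclin1 libraries, whereas Lef1, a Wnt effector gene on the same list, stood at 71.9 and 76.8 against 151 and 157 CPM and rose 2.07-fold. The core pluripotency gene Pou5f1 was not called, at 872 and 869 against 842 and 819.6 CPM. The effect at day 4 differed from that at day 0 for 14 of the 19. Of 18 genes of naive pluripotency 5 rose and 3 fell. Of 13 genes of pluripotency in general 2 rose, 5 fell and 6 were not called. The rises among these 13 include Tdgf1, given above with the streak genes, and the falls include Utf1 and L1td1. Utf1, a chromatin factor gene of pluripotent cells, stood at 45.7 and 53.7 against 21 and 15.8 CPM and fell 2.72-fold (log2 fold -1.44 ± 0.13, adjusted p = 5.25e-09), and L1td1, an RNA-binding protein gene of pluripotent cells, stood at 455 and 432 against 275 and 296 CPM and fell 1.55-fold. Neither pair overlapped.

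Both de novo DNA methyltransferase genes fell, while the maintenance enzyme gene was not called. Dnmt3b stood at 2297 and 2283 CPM in the shNT libraries and at 1166 and 1160 CPM in the shBeclin1 libraries and fell 1.97-fold (log2 fold -0.98 ± 0.057, adjusted p = 2.45e-16), and lies on chromosome 2 at 153649450 to 153687730. Dnmt3a stood at 303 and 288 against 194 and 201 CPM and fell 1.5-fold (log2 fold -0.58 ± 0.06, adjusted p = 1.32e-09). Tet3, which encodes an enzyme that oxidizes methylated cytosine, stood at 45.9 and 42.7 against 27 and 26.6 CPM and fell 1.65-fold (log2 fold -0.72 ± 0.086, adjusted p = 2.62e-08). All 3 were lower in both shBeclin1 libraries. Dnmt1, the maintenance enzyme, was not called, with its shBeclin1 pair above its shNT pair at 324 and 337 against 371 and 367 CPM (log2 fold 0.16 ± 0.075, adjusted p = 0.139). Of 14 genes of DNA methylation 5 fell and none rose, which became 3 falls without shBeclin1 replicate 2 and 4 when any other library was left out. Among Polycomb genes, Cbx7, the chromobox subunit gene prominent in stem cells, stood at 80.1 and 76 against 39.8 and 36.2 CPM and fell 2.06-fold (log2 fold -1.04 ± 0.085, adjusted p = 3.04e-12), and Phc1 at 375 and 374 against 217 and 209.8 CPM and fell 1.76-fold. Phc2, a relative of Phc1, stood at 52.1 and 48.7 against 108 and 101 CPM and rose 2.07-fold, so the members of this group moved in opposite directions (7 rises and 3 falls of 23).

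Of 37 genes of Wnt ligands and receptors 12 rose, 7 fell and 18 were not called, the falls becoming 3 without shNT replicate 1 or 2, 5 without shBeclin1 replicate 1 and 4 without shBeclin1 replicate 2. Wnt5a, a ligand of the posterior streak that steers cell movement, stood at 12.8 and 11.3 against 62.9 and 69 CPM and rose 5.47-fold (log2 fold 2.45 ± 0.12, adjusted p = 4.1e-17). Wnt2, a ligand of early cardiac mesoderm, stood at 1.81 and 2.42 against 18.2 and 18.6 CPM and rose 8.65-fold (log2 fold 3.11 ± 0.21, adjusted p = 9.08e-14), and Wnt2b at 5.92 and 5.38 against 27.6 and 26.5 CPM and rose 4.78-fold. All 3 were higher in both shBeclin1 libraries, while Wnt8a, a streak ligand, stood at 43.4 and 42.6 against 47.2 and 42.6 CPM and was not called. Of 20 antagonist genes 3 rose, 4 fell and 13 were not called, at a median log2 fold of -0.26. Frzb, the gene of a secreted frizzled-related protein, stood at 62.2 and 57.2 against 168 and 175 CPM and rose 2.87-fold (log2 fold 1.52 ± 0.084, adjusted p = 5.87e-17), whereas its relative Sfrp1 stood at 16.4 and 16.6 against 7.97 and 8.4 CPM and fell 2.01-fold (log2 fold -1.01 ± 0.11, adjusted p = 3.67e-09). Wnt target genes rose in 14 of 20, and Lgr5 fell, a call lost without any 1 library. Axin2, the feedback inhibitor most used to read Wnt activity, stood at 66.3 and 69 against 96.7 and 95.7 CPM and rose 1.42-fold.

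BMP target genes rose in 14 of 20 with none down, at a median log2 fold of 1.27, while 6 of 20 ligand, receptor and SMAD genes rose and 1 fell (2 without shBeclin1 replicate 2). Id1, a direct BMP target, stood at 17.7 and 17.8 against 55.8 and 50.4 CPM and rose 2.98-fold, and Bmper, which encodes a BMP-binding protein, at 2.51 and 4.1 against 19.4 and 17.5 CPM and rose 5.54-fold. Id3, another direct target, was not called, at 42.2 and 44 against 44.1 and 43.4 CPM. Of 14 BMP antagonist genes, a list that holds Bmper and Chrd, 5 rose and 2 fell, at a median log2 fold of 0.43. Among ligands Bmp2 stood at 5.99 and 6.86 against 18.4 and 18.2 CPM and rose 2.84-fold (log2 fold 1.51 ± 0.16, adjusted p = 1.34e-09), and Smad1, the gene of a signal transducer of BMP receptors, stood at 68 and 69 against 168 and 167 CPM and rose 2.45-fold (log2 fold 1.29 ± 0.07, adjusted p = 4.23e-17). The hairpins stayed apart in both. In the Nodal pathway 4 of 17 genes rose and 2 fell, and its 2 Lefty antagonists parted. Lefty2, expressed in mesoderm, stood at 45.2 and 45.4 against 149 and 156 CPM and rose 3.38-fold (log2 fold 1.76 ± 0.078, adjusted p = 1.45e-19), whereas Lefty1, expressed in the midline and anterior endoderm, stood at 12.9 and 13.6 against 8.04 and 5.51 CPM and fell 1.98-fold (log2 fold -0.98 ± 0.15, adjusted p = 5e-06). Foxh1, the gene of a DNA-binding partner of Nodal SMADs, stood at 54.2 and 59.7 against 91.5 and 89.9 CPM and rose 1.59-fold.

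FGF ligand and receptor genes rose in 7 of 19 and fell in 1. Fgf3 stood at 13 and 11.8 against 59.3 and 54.4 CPM and rose 4.58-fold, Fgf15 stood at 17.1 and 17.8 against 49 and 43.2 CPM and rose 2.64-fold, and Fgfr1, the receptor gene needed for cells to leave the streak, stood at 156 and 152 against 273 and 256 CPM and rose 1.72-fold. Of 19 VEGF, PDGF and apelin pathway genes 8 rose and 3 fell. Both neuropilin co-receptor genes rose in both libraries, with Nrp1 at 2.93 and 3.1 against 23.7 and 20.3 CPM and Nrp2 at 20.1 and 22.6 against 132 and 133 CPM (log2 fold 2.63 ± 0.076, adjusted p = 5.94e-25). The apelin receptor gene Aplnr, a marker of nascent mesoderm, stood at 73.9 and 73.4 against 174 and 174 CPM and rose 2.37-fold, while its ligand gene Apela stood at 33.6 and 34.7 against 18.6 and 19.4 CPM and fell 1.8-fold (log2 fold -0.84 ± 0.091, adjusted p = 3.08e-09). Of 22 Notch genes 8 rose and 3 fell, the falls becoming 1 without either shNT library or shBeclin1 replicate 2. The receptor gene Notch1 stood at 29.6 and 29.9 against 81.6 and 73.4 CPM and rose 2.6-fold (log2 fold 1.38 ± 0.08, adjusted p = 2.48e-16), and its target Hes1 stood at 54.6 and 51 against 89.7 and 91.6 CPM and rose 1.72-fold. Guidance genes went both ways, as 7 of 20 ephrin and Eph receptor genes rose and 5 fell. Semaphorin, plexin, netrin and slit genes rose in 9 of 36 and fell in 10. The ephrin receptor gene Epha4 stood at 22.4 and 22.2 against 69.8 and 68.3 CPM and rose 3.09-fold. The plexin gene Plxna2 stood at 34.6 and 33.9 against 101 and 99.5 CPM and rose 2.93-fold. The semaphorin gene Sema3e stood at 17.8 and 17.6 against 6.51 and 7.24 CPM and fell 2.57-fold. These 3 did not overlap between the hairpins.

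Matrix and basement membrane genes moved in both directions. Of 40 collagen, laminin and integrin genes 14 rose and 5 fell. Lama1, a laminin chain of the early embryo, stood at 5.3 and 6.93 against 21.5 and 23.8 CPM and rose 3.7-fold (log2 fold 1.89 ± 0.12, adjusted p = 1.96e-15). The paired collagen genes Col4a1 and Col4a2 both rose, at 86 and 83.4 against 168 and 164 CPM and at 28 and 24.6 against 60.2 and 61.1 CPM. Itga8 stood at 15.8 and 18.7 against 46.9 and 52.9 CPM and rose 2.89-fold, while Itga3, an integrin chain of epithelia, stood at 21.9 and 22.3 against 10.4 and 8.57 CPM and fell 2.35-fold (log2 fold -1.23 ± 0.14, adjusted p = 9.86e-08). The basement membrane collagen gene Col18a1 stood at 175 and 172 against 109.5 and 105 CPM and fell 1.62-fold. Of 19 genes of hyaluronan and proteoglycans 7 rose and 3 fell. Gpc3, a glypican gene, stood at 105 and 105 against 245 and 251 CPM and rose 2.36-fold (log2 fold 1.24 ± 0.065, adjusted p = 1.55e-17). Vcan, the gene of versican, and Has2, the gene of hyaluronan synthase, both form the matrix of early mesoderm and heart, and Vcan stood at 32.3 and 27.7 against 86.7 and 88.5 CPM and Has2 at 25.2 and 24.8 against 44.3 and 43.4 CPM, with both shBeclin1 libraries higher.

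Imprinted genes, which are expressed from 1 parental allele, were called in 19 of 27, with 12 up and 7 down. Phlda2, a growth restrainer of the placenta, stood at 15.5 and 14.9 CPM in the shNT libraries and at 99 and 88.1 CPM in the shBeclin1 libraries and rose 6.15-fold (log2 fold 2.62 ± 0.12, adjusted p = 1.45e-19). Peg10, a gene of retrotransposon origin needed for the placenta, stood at 171 and 166 against 641 and 655 CPM and rose 3.85-fold (log2 fold 1.94 ± 0.066, adjusted p = 4.16e-23), and Peg3 stood at 456 and 438 against 1026 and 1069 CPM and rose 2.34-fold (log2 fold 1.23 ± 0.068, adjusted p = 8.68e-17). The shBeclin1 pair was the higher for each. Cdkn1c, a cell cycle inhibitor gene near Phlda2, stood at 16.9 and 16.8 against 37.3 and 35.5 CPM and rose 2.16-fold, and Usp29, a neighbour of Peg3, stood at 11.2 and 10.8 against 26.7 and 27.2 CPM and rose 2.46-fold. The noncoding RNAs of the Dlk1 and Meg3 domain went down, with Meg3 at 269.8 and 253 against 152 and 155 CPM (log2 fold -0.76 ± 0.065, adjusted p = 7.98e-12) and Rian at 635 and 622 against 372 and 372 CPM (log2 fold -0.76 ± 0.063, adjusted p = 5.54e-12). Dlk1, a protein-coding gene of that domain, stood at 1.6 and 1.68 against 4.58 and 4.12 CPM and rose 2.63-fold. Mest and Snrpn also fell, at 143 and 147 against 96.3 and 93.1 CPM and 355 and 370.0 against 276 and 287 CPM, while Grb10 was not called, at 304 and 302 against 311 and 327 CPM. In GRCm38, Phlda2 lies on chromosome 7 at 143501545 to 143503150, Peg10 on chromosome 6 at 4747306 to 4760517 and Meg3 on chromosome 12 at 109541001 to 109571726.

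Genes of insulin signalling and glucose entry included large falls. Of 16 insulin and IGF genes 5 rose and 4 fell. Irs4, an insulin receptor substrate gene on chromosome X at 141710998 to 141725263, stood at 36.6 and 36.6 CPM in the shNT libraries and at 7.24 and 5.34 CPM in the shBeclin1 libraries and fell 5.86-fold (log2 fold -2.55 ± 0.16, adjusted p = 2.69e-15). Irs2 stood at 88.7 and 90.1 against 56.2 and 54.5 CPM and fell 1.62-fold (log2 fold -0.69 ± 0.082, adjusted p = 2.32e-08). Both substrates were lower in both shBeclin1 libraries. The binding protein genes parted, as Igfbp4 stood at 28.9 and 31.2 against 101 and 94.8 CPM and rose 3.25-fold (log2 fold 1.70 ± 0.073, adjusted p = 6.8e-20), and Igfbp5 stood at 11.7 and 14.5 against 3.65 and 4.68 CPM and fell 3.11-fold. The glucose transporter gene Slc2a1 stood at 563 and 579.5 against 284 and 279.5 CPM and fell 2.03-fold (log2 fold -1.02 ± 0.067, adjusted p = 7.85e-15), and Slc2a3 stood at 524 and 521 against 328 and 318 CPM and fell 1.62-fold (log2 fold -0.69 ± 0.068, adjusted p = 3.29e-10). Pdk1, the gene of a pyruvate dehydrogenase kinase, stood at 138 and 132 against 83.2 and 82.6 CPM and fell 1.63-fold. Of 26 genes of glycolysis and hypoxia 5 fell and 2 rose. Falls became 3 without shBeclin1 replicate 2, and rises became 1 without it or without shNT replicate 1 or 2. Ldha, the gene of lactate dehydrogenase, was not called, at 1900 and 1904 against 2043 and 1982 CPM, and the hypoxia responder Egln3 stood at 45.4 and 45.8 against 99.1 and 99.6 CPM and rose 2.18-fold.

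Few autophagy genes were called beside Becn1. Of 32 genes of autophagy initiation and conjugation 3 rose and 4 fell, a share near that of all genes, and leaving out 1 library left 0 to 3 rises and 1 to 3 falls. Rises became 0 and falls 3 without shBeclin1 replicate 2, and falls became 1 without shNT replicate 1 or shBeclin1 replicate 1 and 2 without shNT replicate 2. Wipi1, which binds the lipid made by the Beclin1 complex, stood at 17.9 and 17.2 against 12.8 and 13.4 CPM and fell 1.34-fold (log2 fold -0.43 ± 0.11, adjusted p = 0.00344). Of 16 autophagy receptor genes 3 fell and none rose, which became 1 without shNT replicate 1 or shBeclin1 replicate 2. Retreg1, a receptor gene for turnover of the endoplasmic reticulum, stood at 13.3 and 16.2 against 7.57 and 6.85 CPM and fell 2.06-fold (log2 fold -1.04 ± 0.14, adjusted p = 5.46e-07). Sqstm1, the gene of the cargo receptor p62, was not called, at 152 and 155 against 153 and 156 CPM. Messenger RNA does not show autophagic flux. Of 41 lysosome genes 13 fell and 2 rose, the rises becoming 1 without shNT replicate 1 or 2 or without shBeclin1 replicate 2, at a median log2 fold of -0.18. Asah1, the gene of acid ceramidase, stood at 105 and 104 against 66.8 and 69 CPM and fell 1.54-fold (log2 fold -0.62 ± 0.067, adjusted p = 2.69e-09). Tfe3, a transcription factor gene for lysosome biogenesis, stood at 93.3 and 95.5 against 64.9 and 65.5 CPM and fell 1.45-fold (log2 fold -0.53 ± 0.068, adjusted p = 1.17e-07). The abundant membrane protein gene Lamp1 was not called, at 502 and 509 against 509.5 and 531 CPM.

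Of 17 interferon and MHC genes 6 fell and 1, Ifih1, rose, a call lost without shNT replicate 1, and the summed level was 258 and 249 CPM in shNT and 177.7 and 169.8 CPM in shBeclin1 libraries. Bst2, an antiviral membrane protein gene, stood at 52.1 and 48.2 against 25.2 and 20.8 CPM and fell 2.19-fold (log2 fold -1.13 ± 0.11, adjusted p = 8.1e-11), and the class I gene H2-K1 stood at 49.3 and 53.4 against 36.5 and 30.8 CPM and fell 1.53-fold. The defining interferon responders stayed low in all 4 libraries, with Isg15 at 0.279 and 0.202 against 0.266 and 0.111 CPM and Ifit1 at 0.0697 and 0.0673 against 0.133 and 0.0557 CPM. Knockdown effects on H2-K1 were not shown to differ between day 4 and day 0.

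Markers of other cell types that a culture could hold were read for the same libraries. Of 12 fibroblast genes, as from feeder cells, 4 rose and 2 fell, the falls becoming 1 without shNT replicate 2 or shBeclin1 replicate 2, and their summed level was 52.4 and 55 CPM in shNT and 88.4 and 80.8 CPM in shBeclin1 libraries. The 4 that rose were Twist1, shared with the mesenchymal list, the collagen genes Col5a1, at 13.5 and 13.5 against 19.6 and 19.9 CPM, and Col1a2, at 7.88 and 8.01 against 10.9 and 11.2 CPM, and Fbn1, the gene of the matrix protein fibrillin, at 8.01 and 8.95 against 12.6 and 12.9 CPM. Of the other members, Lum, Fap and Postn stood at most at 0.0697 CPM in any library, and Col1a1 and Loxl1 were not called. Thy1, the gene of a surface protein, fell, at 11.4 and 14.1 against 8.24 and 6.12 CPM, a call lost without shNT replicate 2 or shBeclin1 replicate 2. Dcn, the gene of decorin, stood at 2.44 and 1.35 against 0.266 and 0.0557 CPM and fell 11.9-fold (log2 fold -3.57 ± 0.59, adjusted p = 2.37e-05). Of 18 genes of primitive and visceral endoderm 8 rose and 3 fell, with sums of 636 and 649.7 CPM against 922 and 903 CPM. The defining endoderm genes Afp, Ttr and Apoa1 stood at most at 0.139 CPM in any library, and the members that rose include Gata4, Gata6, Pdgfra and Sox7, which mesoderm or blood precursors also express. Apoe fell, at 164 and 171 against 94 and 89.2 CPM. Of 11 trophoblast genes 6 rose and 1 fell (2 without shBeclin1 replicate 1), with sums of 645 and 627 CPM against 959 and 991 CPM, mostly from Eomes. The part of these cell types in the results above was not tested. The 13 genes encoded by mitochondria had no call with edgeR or with DESeq2, and 1 had an unadjusted p under 0.05.

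**Figure D4:**
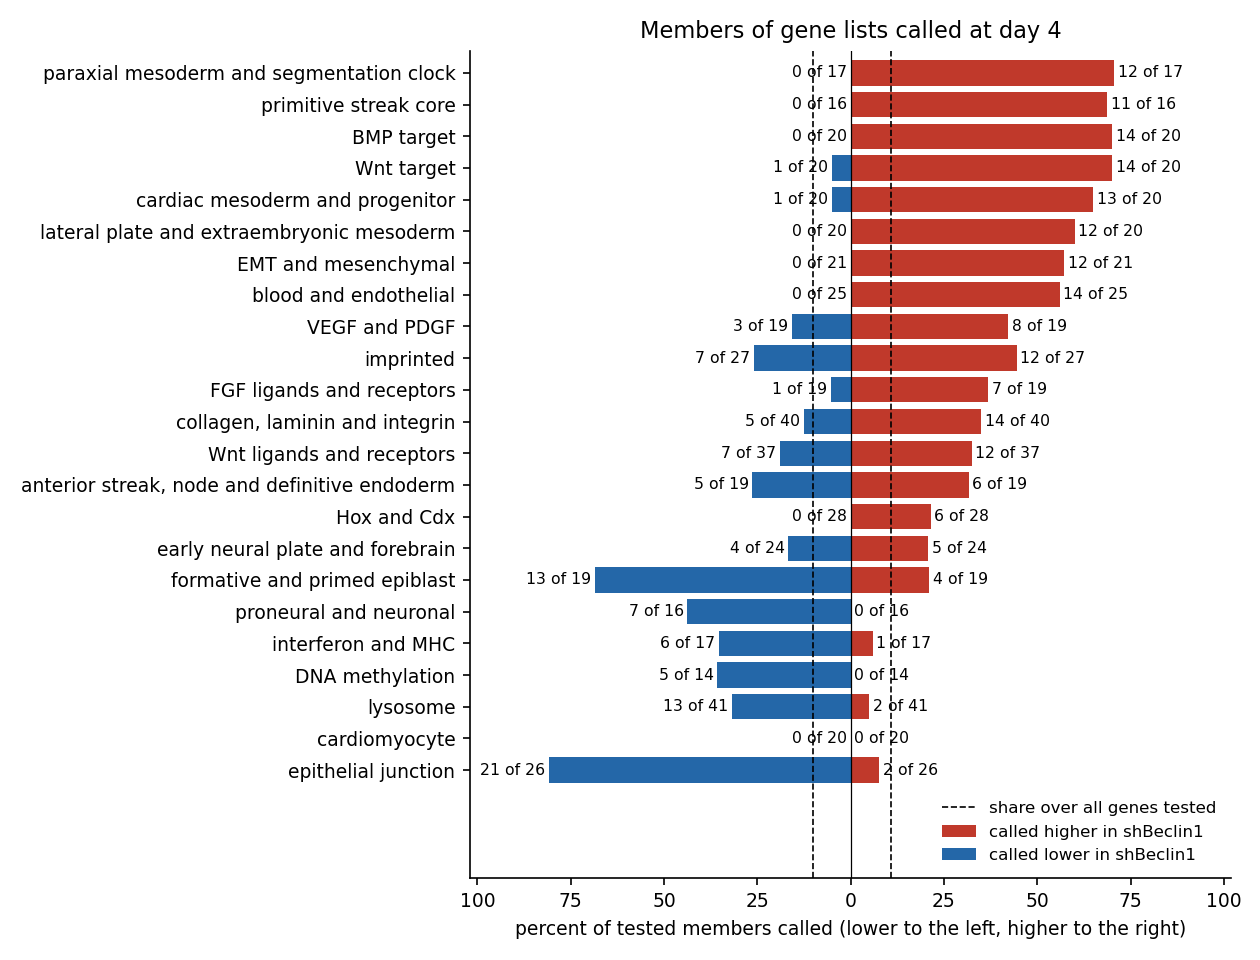
Percent of the tested members of 23 gene lists that were called higher (right) or lower (left) in shBeclin1 at day 4, with dashed lines at the shares of all genes, 10.7% higher and 10.1% lower. Streak, mesoderm and BMP and Wnt target lists extend far to the right, epithelial and formative lists far to the left, and the cardiomyocyte list has no call.

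Outside the lists, the largest rises at a mean of at least 2 on the log2 CPM scale included Klhl6 at 4.25 and 3.84 against 28.1 and 28.1 CPM and Lmo1 at 1.46 and 1.88 against 13.4 and 11.2 CPM. The largest falls there included Cdh9, a cadherin gene, at 7.67 and 6.46 against 1.59 and 1.61 CPM, and Mal2, a gene of apical sorting in epithelia, at 14.3 and 14.4 against 3.26 and 3.9 CPM. Among genes of high level with at least a 2-fold change, Amot, whose product links junctions to the Hippo pathway, stood at 190.0 and 189 against 512 and 531 CPM and rose 2.76-fold (log2 fold 1.46 ± 0.071, adjusted p = 2.88e-18). Kif1a, a kinesin gene of neurons, stood at 163 and 157 against 57.7 and 57.5 CPM and fell 2.78-fold (log2 fold -1.47 ± 0.074, adjusted p = 5.04e-18), and Tpd52 stood at 169 and 168 against 76.7 and 80.8 CPM and fell 2.14-fold. The libraries of the hairpins did not overlap for any of these.

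Against day 10, the knockdown effect differed for 4993 genes (26.1%), and several day 4 rises stood reversed there. The comparisons at different days use different control libraries. T, which rose at day 4, stood at 260.4 and 258 against 0.451 and 0.41 CPM at day 10, so both control libraries were high and both knockdown libraries near 0. Car3, a carbonic anhydrase gene, stood at 3.83 and 2.76 against 10.6 and 8.63 CPM at day 4 and at 209 and 223 against 0.901 and 0.936 CPM at day 10. Six2, a homeobox gene, stood at 6.27 and 5.11 against 26.7 and 22.2 CPM at day 4 and at 40.5 and 32.9 against 0.451 and 0.234 CPM at day 10. All 3 were thus higher with shBeclin1 at day 4 and lower at day 10. Others were higher with shBeclin1 at both days, as Msx1 stood at 6.41 and 5.05 against 16.9 and 15.7 CPM at day 4 and at 0.35 and 0.3 against 38.8 and 36.6 CPM at day 10. Hand1 stood at 3.9 and 4.45 against 151 and 141 CPM at day 10. Fn1, far apart at day 4, stood at 1894 and 1983 against 1856 and 1903 CPM at day 10, where the hairpins overlapped. Wnt2 had no count at day 0 and stood at 0 and 0.0601 against 6.69 and 6.09 CPM at day 10. Mesp1 stood at most at 0.322 CPM in every library of day 0 and day 10.

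**Figure D5:**
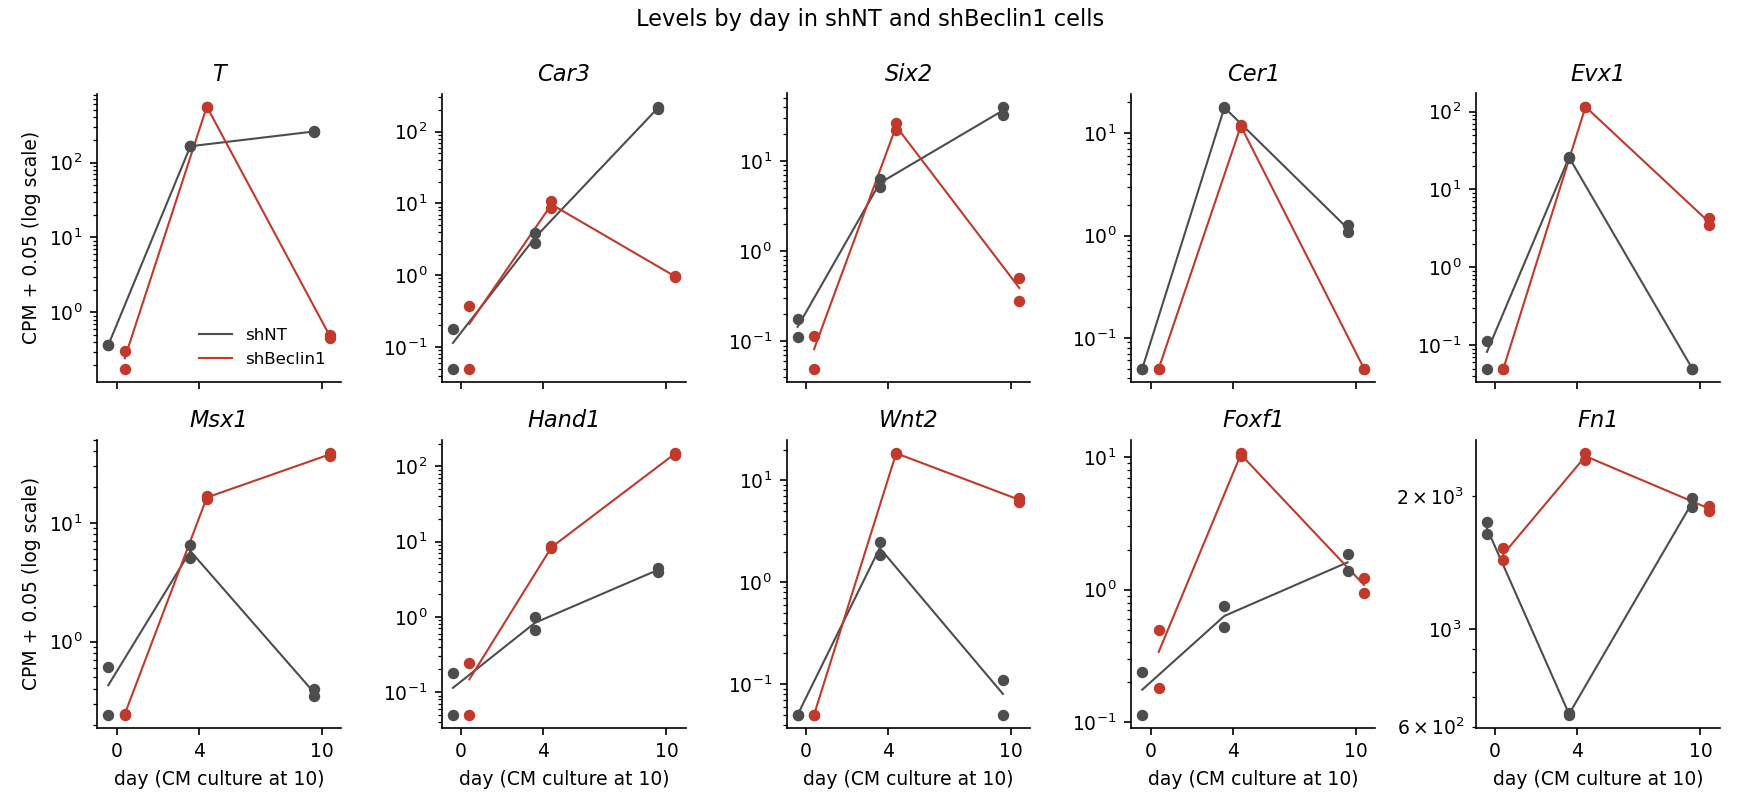
Level of 10 genes at day 0, day 4 and day 10 (CM) for each library, as CPM plus 0.05 on a log axis, with lines joining the means of 2 libraries of each hairpin. T, Car3 and Six2 are higher in shBeclin1 at day 4 and lower at day 10, while Hand1, Msx1 and Wnt2 are higher in shBeclin1 at both.

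To set the day 4 changes beside the course of differentiation, genes were grouped by how shNT cultures changed from day 0 to day 10, which uses no day 4 library. Of 4333 genes that rose at least 2-fold on that course, 16.7% rose and 11.8% fell at day 4 with shBeclin1. Of 3502 genes that fell at least 2-fold, 5.68% rose and 13.2% fell. Of the other 11306 genes, 9.95% rose and 8.45% fell. Changes were spread over the genome, with median log2 folds per chromosome from -0.04 to 0.064.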

How the data were processed

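The series holds 16 RNA libraries of ES-E14TG2a cells in 8 groups of 2, and the 4 embryoid body libraries of day 4 carry the comparison of the hairpins. Per the labels' protocols, RNA was taken with TRIzol, rRNA was depleted, a stranded library kit was used, and reads came in pairs from a HiSeq X 10, while the molecule tag says polyA RNA. The authors deposited raw read counts per gene symbol, and the whole-number values with unequal column sums fit that unit. Per the submitters' processing notes, Trimmomatic 0.36, featureCounts, Subread 1.5.1, SAMtools and mm10 were used. The sources used here do not give their order, the aligner, the gene annotation or the strand option of the counting. Each of the 16 count columns was assigned to a library by its name.

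Counts were fitted in R 4.3.3 with edgeR 4.0.16 (limma 3.58.1) over all 16 libraries, 1 mean per group, after filterByExpr and with TMM scaling and robust quasi-likelihood estimation, which left 8 residual degrees of freedom and a biological coefficient of variation of 5.38%. A gene was called where its p, adjusted by Benjamini-Hochberg, was under 0.05. Differences of knockdown effects between days were contrasts of the same fit. Alternatives were DESeq2 1.42.0, other scalings and filters, the 4 libraries alone, a replicate block and leaving out each library. Replicate numbers did not pair the libraries, as the differences between replicates correlated at -0.016 between hairpins at day 4. After the main fit, the same steps were run on counts simulated from its fitted means and spreads, with known changes in genes that were not of low count. Of 50 genes changed at each size, 31 were called at 1.5-fold, 45 at 2-fold, 50 at 4-fold and 49 at 8-fold. Among 18641 unchanged genes 7 were called. Changes near 1.5-fold can thus go uncalled.

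The gene lists and the comparison itself were chosen with earlier results of these data known, and the lists share members. Genes were named by rule: Becn1, the 12 largest called rises and falls at a mean log2 CPM of at least 2, the 5 most abundant with a 2-fold change in each direction, up to 5 called members of each list in each direction by adjusted p, and the 6 largest differences of each sign between days. Not every gene that the rule gave is described, and some are not reported here. Genes named outside the rule were chosen after their values were seen. They are Afp, Apoa1, Atg14, Axin2, Bmp4, Cdh1, Cldn9, Cntd1, Col1a1, Col3a1, Dlk1, Dnmt1, Fap, Fgf17, Fgf8, Grb10, Gsc, Hba-x, Hbb-bh1, Id3, Ifit1, Isg15, Krt19, Lamp1, Ldha, Loxl1, Lsr, Lum, Meox1, Msgn1, Nkx2-5, Nodal, Pik3c3, Postn, Pou5f1, Snai2, Sqstm1, Tbx5, Tcf15, Tnnt2, Ttr, Uncx, Wnt3a, Wnt8a and Zeb1. Gene positions and exon overlaps come from GENCODE vM21, and promoter windows come from RefSeq for GRCm38.p6, matched by symbol for 12921 of the tested genes and read in Python 3.11.15. The 959 entries that repeat 1 of 77 symbols were kept apart.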

Additional observations from a re-analysis of the deposited data

Results flagged for a closer look

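The effect of the hairpin differed between day 4 and day 0 for 2836 genes and between day 4 and day 10 for 4993 genes, by a contrast of the 2 effects in edgeR's quasi-likelihood test. The genes below had the largest such differences of each sign among those called, apart at day 4 and at a mean log2 CPM of at least 2 there. A positive value means a higher ratio of shBeclin1 to shNT at day 4, and levels are given with the shNT libraries first. Groups hold 2 libraries, too few to test single libraries as outliers.

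Against day 0, the log2 differences were 8.23 for S1pr5, a receptor gene for the lipid sphingosine 1-phosphate, 4.43 for Foxc2, 4.19 for Adra2b, 4.16 for Klhl6, 4.08 for Asb4 and 4.01 for Tal1. S1pr5 stood at 0.767 and 0.439 against 0 and 0 CPM at day 0 and at 2.23 and 2.02 against 8.7 and 7.01 CPM at day 4. As the shBeclin1 group of day 0 had no count, its value depends on the prior count and is no bound. Tal1 stood at 1.92 and 1.63 against 0.325 and 1.09 CPM at day 0 and at 3.07 and 2.42 against 18.3 and 17.4 CPM at day 4, so the higher pair changed from shNT to shBeclin1. Foxc2 turned in the same way, from 1.47 and 0.879 against 0.26 and 0.257 CPM to 1.88 and 1.21 against 7.37 and 7.68 CPM. Adra2b, Klhl6 and Asb4 were under 1 CPM in every day 0 library.

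The negative differences against day 0 were -4.95 for Prlr, -3.41 for Thbs1, -3.17 for Astn1, -3.07 for Cdh9, -2.85 for Irs4 and -2.69 for Enpp2. Prlr, the gene of the prolactin receptor, stood at 0.32 and 0.314 against 2.6 and 3.27 CPM at day 0 and at 12.3 and 10.2 against 3.39 and 3.23 CPM at day 4, so shBeclin1 was the higher pair at day 0 and the lower at day 4. Enpp2, the gene of autotaxin, stood at 0.383 and 0.126 against 0.456 and 0.834 CPM at day 0 and at 94.7 and 92.3 against 38.3 and 34.3 CPM at day 4. Thbs1, Astn1 and Enpp2 were under 1 CPM in every day 0 library, and the day 4 call of Thbs1, at 5.3 and 6.26 against 4.32 and 3.78 CPM, was lost at an adjusted p of 0.272 without shNT replicate 2 and of 0.222 without shBeclin1 replicate 2.

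Against day 10, the log2 differences were 10.97 for T, 9.40 for Car3, 8.84 for Six2, 6.70 for Pkd1l1, 6.66 for Cer1 and 6.37 for Dnah11. Pkd1l1, a gene of the node's flow sensor, stood at 4.88 and 6.59 against 2.52 and 2.06 CPM at day 4 and at 27.5 and 24.5 against 0.0644 and 0.117 CPM at day 10. Dnah11, a dynein gene of motile cilia, stood at 5.16 and 4.24 against 7.97 and 8.18 CPM at day 4 and at 12.7 and 14.6 against 0.322 and 0.234 CPM at day 10. Cer1 stood at 17.4 and 18.2 against 11.4 and 12 CPM at day 4 and at 1.23 and 1.02 against 0 and 0 CPM at day 10, and the fitted value rests on a group with no count. The day 4 call of Cer1 was lost without any 1 library and with DESeq2, at adjusted p from 0.0641 to 0.106, and that of Dnah11 was lost without shNT replicate 2 (adjusted p = 0.112).

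The negative differences against day 10 were -6.82 for Evx1, -6.61 for its antisense partner Evx1os, -5.30 for Msx1, -4.79 for Pdlim3, -4.76 for Sphkap and -4.68 for Igsf11. Evx1 stood at 25.3 and 26.2 against 116 and 115 CPM at day 4 and at 0 and 0 against 4.18 and 3.39 CPM at day 10, while Evx1os stood at 12.6 and 13.5 against 58.9 and 57.3 CPM at day 4 and at 0 and 0 against 3.67 and 2.81 CPM at day 10. With no count in the shNT group of day 10 both fitted values are no bound, and reads of the pair cannot be told apart without the strand setting. Sphkap, a gene of an anchoring protein, stood at 6.83 and 5.99 against 2.86 and 3.12 CPM at day 4 and at 10.9 and 13.4 against 155 and 151 CPM at day 10. Pdlim3, a gene of the muscle Z disc, stood at 19.6 and 18.4 against 12.3 and 9.13 CPM at day 4 and at 2.28 and 3.24 against 41.8 and 41.7 CPM at day 10. Igsf11 stood at 6.48 and 5.92 against 1.66 and 1.89 CPM at day 4 and at 4.16 and 3.36 against 30.2 and 26.3 CPM at day 10. The shBeclin1 libraries were the lower pair at day 4 and the higher pair at day 10 for these 3.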

How the results depend on the processing

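The count of 3975 genes called at day 4 fell to 2514 to 2644 when 1 library was left out, which leaves a lone sample in its group assumed to vary like the others. It was 3941 with DESeq2's size factors, 3772 with total counts, 3777 with no filter, 4046 with a stricter filter, 3255 with DESeq2, 5693 with the 4 libraries alone and 3921 without robust estimation. With a replicate block within each stage it was 4065, and as replicate numbers were not found to pair the libraries this is given once. Counts at 2-fold stayed between 794 and 971 and the log2 fold of Becn1 between -0.92 and -1.10, called in each setting run. The difference counts stayed between 2006 and 2894 against day 0 and between 3941 and 5100 against day 10. Of 204 genes named in the text and tested, 11 changed in call under at least 1 of the 12 settings and none turned its direction as a called gene. The calls of Hopx, Lgr5, Vmp1, Sh3glb1, Ifih1, Thbs1, Thy1, Cer1 and Dnah11 were lost without 1 library or more, at adjusted p from 0.0544 to 0.279, and Dnmt1 and Pou5f1 gained a call with the 4 libraries alone. Sh3glb1 also lost its call with total counts, and Lgr5 and Cer1 with DESeq2. Counts of list members called higher or lower moved by more than 1.5 times in 152 combinations of a list, a direction and a setting and by less in 1216. Genes under 1 CPM, most Hox and cardiomyocyte genes among them, rest on few counts, and small changes there were not detectable at this depth. With 2 libraries a group and a batch tag that repeats the hairpin, the calls describe these libraries.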
